A study of Danio rerio with 6 samples.

Results

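Histidine tRNAs were followed through the first day of zebrafish life by taking every row of the cytoplasmic tRNA read table whose amino acid is histidine. The table lists distinct read sequences with their abundance, and 1296 of its 3021 sequences carried this label. Of these, 1293 were labelled His-GTG, the anticodon that reads the histidine codons, and 3 were labelled His-ATG. The libraries came from whole wild-type (WT) eggs or embryos of the TU strain, collected as mature egg, at the 1cell, 256cell, sphere and shield stages, and at 24hpf (24 hours after fertilisation). About 50 to 100 animals were pooled per stage, no transgene or treatment separates the stages, and each stage has 1 library. No difference between stages therefore has a replicate check. Whole animals were used, so fewer cells of a type and less RNA per cell cannot be told apart.

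A tRNA carries an amino acid on its 3′ CCA tail and reads a codon with the anticodon in its middle. Histidine tRNA is unusual in having an extra G added in front of its first base after transcription, and this G is the mark by which histidyl-tRNA synthetase, the enzyme that loads histidine, recognises it. Many tRNAs also carry a methyl group on the adenosine at position 58, in the loop near the 3′ end, which blocks reverse transcription. The RNA here was treated with a mixture of ALKB enzymes that removes part of such methyl groups before the library was made. RNA of tRNA size was cut from a gel and sequenced, and reads under 60 nt were not analysed here. In fish embryos the egg supplies the RNA of the first stages, and broad transcription of the embryo's own genes begins before the sphere stage.

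The sequence against which all reads were compared is the 76 nt His-GTG sequence of the table, which starts with the extra G and ends in CCA. Positions are counted from 1 at its 5′ end, and the anticodon fills positions 35 to 37, in capitals in the first line. The second line is the most abundant read, which starts at position 15. The next lines show the reads behind the main variants, with the changed base in capitals. Each is the most abundant read of its variant, except C67T, where the read shown is the one with the highest ratio of 24hpf to egg described further on.

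full-length: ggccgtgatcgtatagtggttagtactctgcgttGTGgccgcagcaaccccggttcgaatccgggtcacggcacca
most abundant read: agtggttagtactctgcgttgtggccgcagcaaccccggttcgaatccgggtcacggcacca
A58T: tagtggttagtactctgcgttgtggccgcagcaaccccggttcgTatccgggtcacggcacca
A58G: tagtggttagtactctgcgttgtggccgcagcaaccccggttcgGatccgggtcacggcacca
G18A: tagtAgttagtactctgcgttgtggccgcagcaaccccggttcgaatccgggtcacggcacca
G57A: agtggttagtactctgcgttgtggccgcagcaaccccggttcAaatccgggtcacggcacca
C40T: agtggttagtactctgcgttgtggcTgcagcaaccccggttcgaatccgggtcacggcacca
C69T: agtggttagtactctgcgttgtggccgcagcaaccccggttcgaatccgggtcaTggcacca
T21C/A73T: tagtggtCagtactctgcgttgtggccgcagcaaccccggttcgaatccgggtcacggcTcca
C51T/G63A: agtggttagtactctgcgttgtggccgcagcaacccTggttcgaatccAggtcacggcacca
C67T: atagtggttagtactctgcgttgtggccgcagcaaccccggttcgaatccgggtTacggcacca
G35A, labelled His-ATG: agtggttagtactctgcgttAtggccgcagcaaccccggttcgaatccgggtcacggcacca

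A name such as A58T gives the base of the full-length sequence, the position, and the base of the read. Of the 1296 sequences, 1180 aligned to the full-length sequence with at most 5 substitutions. A further check left 1132 that needed no gap, and these held 98.4% of the histidine RPM. Among the 1132, 52 had no substitution. Reads were not placed on individual gene copies, so whether a variant comes from another gene copy, a modified base or an error of copying or sequencing was not tested. In the RefSeq gene table of the assembly GRCz12tu, which is not the build of the authors' files, 146 of 8452 tRNA genes are named trnah-gug. This shows only that the gene has many copies.

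His-GTG made up most of the listed cytoplasmic tRNA reads at every stage. Only reads of 60 nt or more are listed, so this does not measure its share of the tRNA molecules. Its level in reads, relative to the whole library, fell and rose. It was 591895 reads per 1000000 library reads (RPM) in egg, 345533 at 1cell and 492091 at 256cell, then 450268 at sphere, 619633 at shield and 690541 in the 24hpf library. The 1cell library was the lowest and the 24hpf library the highest, 2.00-fold apart. The RPM also depends on how many reads of a library fall in neither tRNA table, which was 34.2% at 1cell and between 16.8% and 26.6% in the other 5 libraries. It depends as well on the mitochondrial tRNA reads, which were 1432257 of 6094181 library reads at 1cell and 241206 of 6148047 at 24hpf. All listed cytoplasmic tRNA reads together came to 664109 RPM in egg, 423167 at 1cell and 775998 at 24hpf. As a share of the cytoplasmic tRNA reads, histidine tRNAs were 89.1% in egg (95% exact Clopper-Pearson interval 89.1 to 89.2) and 89.0% at 24hpf, with 81.7% to 87.1% in the 4 stages between. The mean share of the 3 later stages (sphere, shield, 24hpf) was 86.0%, as was that of the 3 earlier stages (egg, 1cell, 256cell). The exact two-sided permutation test over the 6 libraries gave p = 1 for the share and p = 0.4 for the RPM (0.6 after Benjamini-Hochberg adjustment over 3 values). With 3 against 3 libraries this test cannot go below 0.1, and it treats stages as if they were replicates. Histidine reads are also most of the total they are divided by, which leaves their share little room to rise. Intervals cover counting error only, because each stage has 1 library. They can be too narrow even for that error, because copies made by PCR were not told apart by molecular identifiers.

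Mitochondria make their own histidine tRNA, trnH, whose level followed another course. It was 9196 RPM in egg, 13064 at 1cell and 19440 at 256cell, then 15766 at sphere, 8743 at shield and 3528 in the 24hpf library. It peaked at 256cell and was lowest at 24hpf. The ratio of listed cytoplasmic histidine reads to trnH reads was 64.4 in egg, 25.3 to 28.6 from 1cell to sphere, 70.9 at shield and 196 at 24hpf. The mitochondrial table as a whole held 803279 of 3324546 library reads at 256cell and 241206 of 6148047 at 24hpf. Within that table the share of trnH moved less, from 5.56% at 1cell to 8.99% at 24hpf. The later and the earlier libraries overlapped in trnH RPM, and the exact permutation test gave p = 0.4 (adjusted p = 0.6).

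The reads labelled His-ATG were rare. They numbered 282 in egg, 180 at 1cell and 141 at 256cell, then 260 at sphere, 207 at shield and 263 in the 24hpf library, or 29.5 to 49.1 RPM. Per 1000000 His-GTG reads they were lowest at 24hpf (61.9) and in egg (67.1), and highest at sphere (98.0). The 3 sequences behind the label are near copies of the main His-GTG read. In 2 of them, starting at positions 14 and 15, the anticodon reads ATG through the single change G35A. The third, with C31T and T55C, has the unchanged letters GTG at the anticodon, against its label. Its level was 15.8 RPM in egg, 7.38 at 1cell and 16.5 at 256cell, then 5.60 at sphere, 4.27 at shield and 1.46 in the 24hpf library, while the 2 with ATG together went from 24.0 RPM in egg and 22.2 at 1cell to 44.9 at shield and 41.3 at 24hpf. As a share of the aligned histidine reads, those 2 were lowest in egg (0.00412%) and highest at sphere (0.00871%), with 0.00605% at 24hpf. The 24hpf library is therefore the lowest only with the third sequence included. Changes inside the anticodon were not limited to the His-ATG label. Among 1129 aligned sequences labelled His-GTG, 12 had other letters there: GTT summed to 126 to 335 RPM, GCG to 36.4 to 76.1, GTA to 15.9 to 46.7 and TTG to 12.6 to 30.7. The ATG reads, at 22.2 to 44.9 RPM, lay within the range of these single changes. The remaining 1117 held GTG at positions 35 to 37, as labelled.

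**Figure D1:**
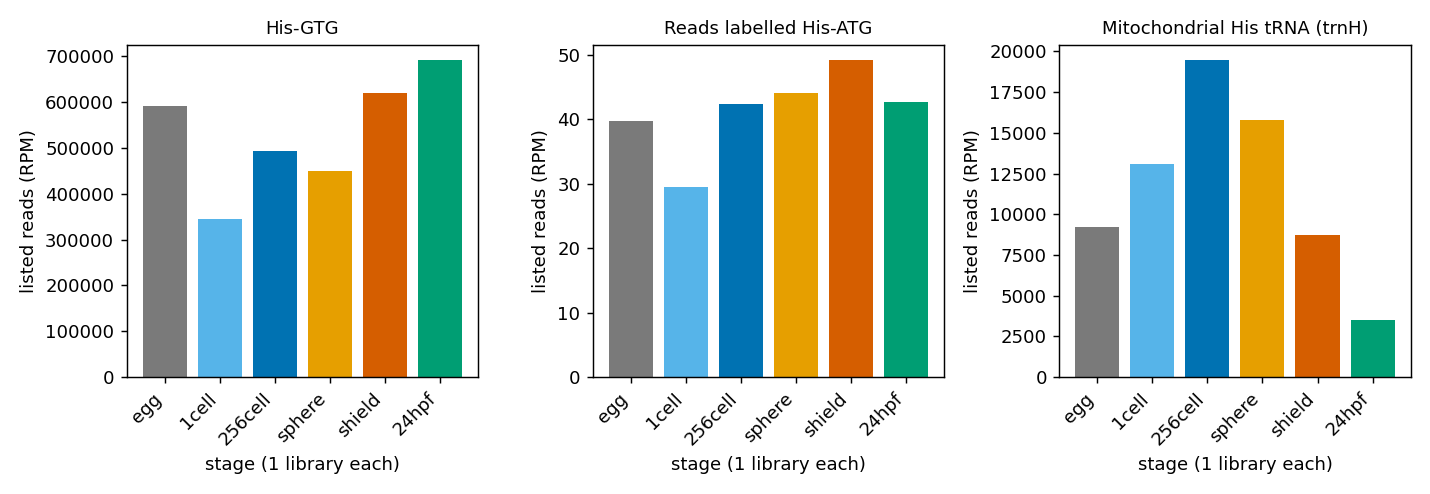
Bars give the RPM of the listed reads of His-GTG (left), of the 3 sequences labelled His-ATG (middle) and of mitochondrial trnH (right), 1 library per stage and no error bars. His-GTG was lowest at 1cell and highest at 24hpf, where trnH was lowest.

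Histidine reads were much shorter than the complete tRNA, because nearly all began inside the molecule. Reads of 60 to 64 nt held 84.8% of the histidine reads in egg, 79.1% at 1cell and 80.7% at 256cell, then 80.3% at sphere, 79.8% at shield and 82.5% in the 24hpf library. Reads of 65 to 67 nt held 14.6% in egg and 17.1% to 20.0% in the other 5 libraries. The class of 68 to 69 nt was 0.591% in egg, 0.819% to 0.907% from 1cell to shield and 0.409% at 24hpf. No histidine read was longer than 76 nt, and the classes from 70 nt up held under 0.1% in every library.

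Starts were concentrated on 2 neighbouring bases where the D arm turns into its loop. Position 14 began 29.0% to 31.0% of the aligned histidine reads, and position 15 began 27.9% to 33.6%. Position 12, within the stem of that arm, followed with 10.6% to 15.0%, and position 13 with 7.84% to 11.4%. The egg library differed from the rest in this profile. Its share starting at positions 11 to 13 was 22.3%, against 28.0% to 29.7% in the other 5 libraries. Its share starting at positions 16 and 17 was 13.2%, against 8.00% to 9.99% in the others. At position 16 alone the values were 7.19% in egg, 4.95% at 1cell and 4.57% at 256cell, then 3.63% at sphere, 3.76% at shield and 3.87% in the 24hpf library, so the egg stood above the range of the others. The 24hpf library differed at another place. Its starts at positions 8 to 10 held 1.23%, against 1.91% in egg and 2.37% to 2.71% from 1cell to shield. Since the table holds no read under 60 nt, a read with the full 3′ end that starts after position 17 could not be listed, and the profile is cut there.

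**Figure D2:**
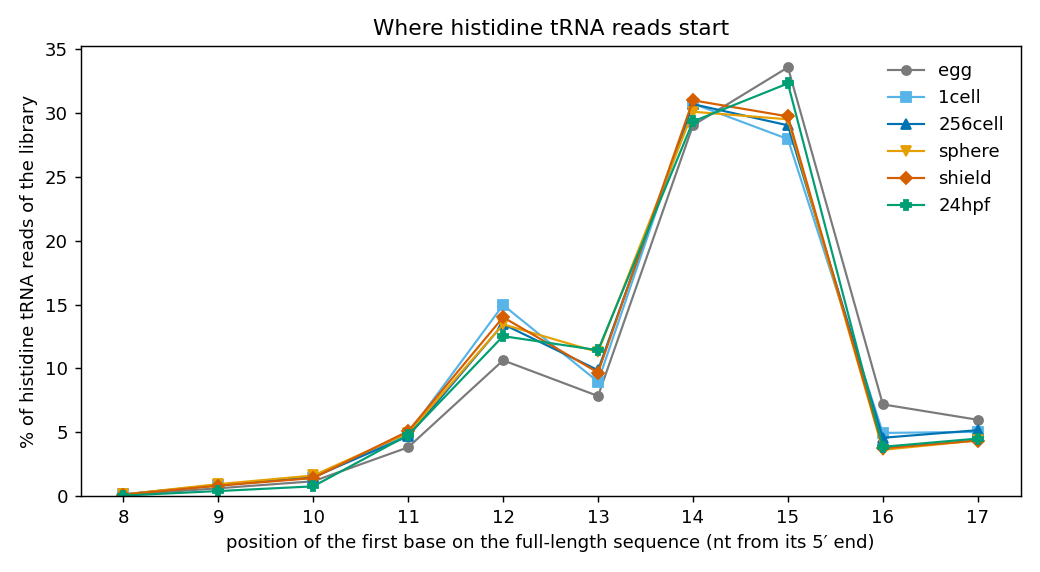
Percentage of the histidine tRNA reads of each library (vertical axis) that start at positions 8 to 17 of the full-length sequence (horizontal axis, nt from the 5′ end), 1 line per stage. Positions 14 and 15 lead in all 6 libraries, and egg is lowest at positions 11 to 13 and highest at 15, 16 and 17.

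The most abundant single reads carried the same profile. The unchanged read from position 15 to the CCA end had 148248 RPM in egg, 69068 at 1cell and 106835 at 256cell, then 96535 at sphere, 139565 at shield and 184419 in the 24hpf library. The unchanged read from position 14 had 123259, 74193, 108408, 94713, 140347 and 162478 RPM in the same order. The read from 15 was ahead in egg, sphere and 24hpf and the read from 14 in 1cell, 256cell and shield. The 2 together were 41.5% to 50.2% of the histidine reads, with the highest share at 24hpf. The 10 most abundant sequences held 71.02% at 1cell and 74.4% in egg, and 83.4% at 24hpf. After the main pair came the unchanged reads from positions 12, 13, 17, 16 and 11, with means of 49865, 38789, 20244, 19504 and 18331 RPM, then A58T reads from positions 14 and 15 (5597 and 4963 RPM) and the unchanged read from position 10 (4668 RPM).

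Long reads were few: 12 sequences had 70 nt or more, 3 of which could not be aligned, and the other 9 started at positions 1 to 7. The full-length sequence itself had 16.2 RPM in egg, 6.24 at 1cell and 5.41 at 256cell, then 16.5 at sphere, 16.4 at shield and 9.27 in the 24hpf library. The longest class was led by a 73 nt read starting at position 4, with 63.97 RPM in egg, 27.6 at 1cell and 35.2 at 256cell, then 42.4 at sphere, 68.6 at shield and 74.5 in the 24hpf library. Its mean of 52.0 RPM stood above the unchanged reads that start at positions 3 and 5 and end in CCA, with means of 11.1 and 7.99 RPM. In 2 further 76 nt sequences the levels moved apart between stages, on few reads. C4T/C51T had 5 to 114 reads per library and G71A had 2 to 71. The variant C4T/C51T had 1.27 RPM in egg, 6.07 at 1cell and 2.71 at 256cell, then 19.3 at sphere, 15.2 at shield and 0.813 in the 24hpf library. The variant G71A had 10.0 RPM in egg, 7.22 at 1cell and 1.203 at 256cell, then 2.55 at sphere, 2.37 at shield and 0.325 in the 24hpf library. The last value is under the 0.488 RPM that 3 reads are worth in that library. Reads that keep the extra G at position 1 also occurred with an incomplete 3′ end, ending at positions 60, 61 and 66, with means of 4.15, 4.43 and 8.14 RPM. A further read ending at 66 has T at position 1 (G1T), with a mean of 9.95 RPM.

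Almost all histidine reads carried the complete CCA tail, and this hardly moved with stage. CCA ended 94.0% of the reads in egg, 94.5% at 1cell and 94.7% at 256cell, then 94.0% at sphere, 94.4% at shield and 94.7% in the 24hpf library. Tails one base short (CC) were 2.39% to 2.70%, tails with a single C were 1.95% to 2.38%, and all other ends were 0.752% to 1.09%. By sequences rather than reads, 1033 of 1296 ended in CCA. The share depended on the start: it was 58.2% to 65.2% over the libraries for reads starting at position 8, 82.2% to 90.6% at position 9, 92.1% to 97.7% at positions 10 to 16 and 100% at position 17. At position 17 the length limit of 60 nt admits only reads with the full tail. It also cuts the ends at nearby starts. Reads from position 16 can end only at 75 or 76, those from 15 at 74 or later, and those from 14 at 73 or later. The share at these starts, and so the share over all starts, is partly set by the limit.

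Reads that match the full-length sequence throughout their length held 79.2% of the aligned histidine reads in egg, 75.9% at 1cell and 78.7% at 256cell, then 76.9% at sphere, 79.7% at shield and 87.1% in the 24hpf library. The remainder fell into changes at position 58 and changes elsewhere, and these behaved unlike each other. A change at position 58 was present in 6.22% of the aligned reads in egg, 4.25% at 1cell and 5.09% at 256cell, then 6.31% at sphere, 6.70% at shield and 6.24% in the 24hpf library. The 1cell library was lowest and egg and 24hpf were close to each other. A change at any other position was present in 15.1% in egg, 20.3% at 1cell and 16.7% at 256cell, then 17.4% at sphere, 14.1% at shield and 6.89% in the 24hpf library (exact interval 6.86 to 6.91). The 24hpf value was under the range of the other 5. The 24hpf library was also the lowest among reads of each start from position 8 to 17. Changes elsewhere ranged over the libraries from 6.39% to 19.6% at position 15 and from 6.74% to 19.8% at position 14.

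**Figure D3:**
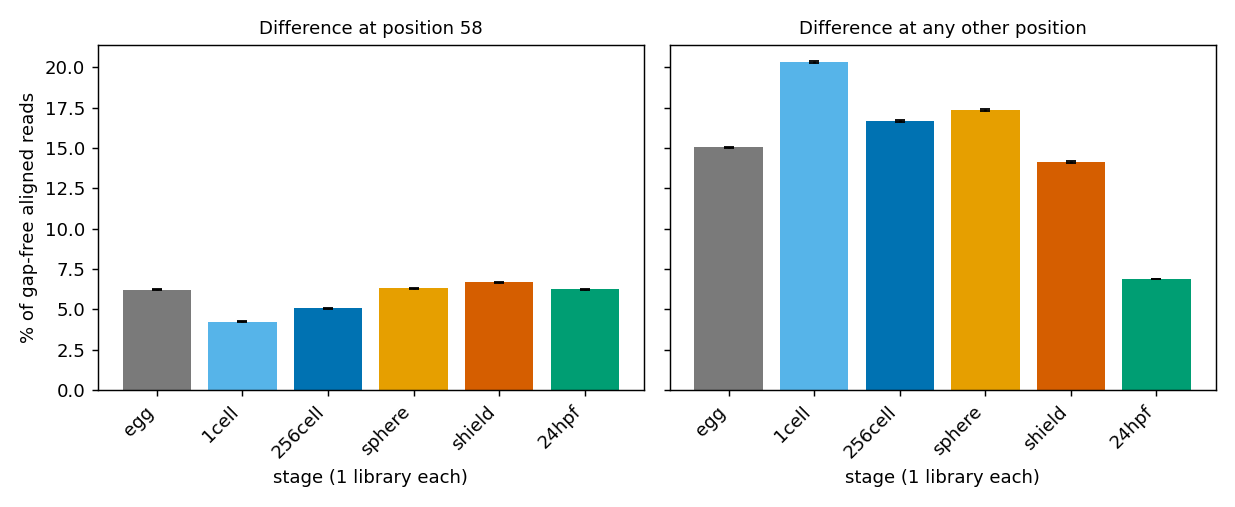
Percentage of the gap-free aligned histidine tRNA reads with a change at position 58 (left) and at any other position (right), by stage, 1 library each; error bars are 95% exact intervals for counting error and are very short. At position 58 the values lie between 4.25% and 6.70%, and elsewhere 24hpf (6.89%) is under the other 5 libraries (14.1% to 20.3%).

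Position 58 was the most often changed of positions 18 to 71. For single changes the share is taken over the reads of all 1180 aligned sequences that cover the position. A58T was carried by 3.44% of the reads in egg, 2.61% at 1cell and 3.17% at 256cell, then 3.92% at sphere, 4.19% at shield and 3.83% in the 24hpf library. A58G was carried by 2.51%, 1.48%, 1.74%, 2.19%, 2.29% and 2.19% in the same order. Both were lowest at 1cell, A58T peaked at shield and A58G in egg. As the single change of a read, A58C was 0.152% to 0.251%.

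From position 18 to the 3′ end the named changes other than those at 58 were lowest at 24hpf, and they differed in which earlier library was highest. G18A, in the D loop, was 1.91% in egg, 2.04% at 1cell and 2.87% at 256cell, then 2.36% at sphere, 1.61% at shield and 0.734% in the 24hpf library. G57A, next to position 58, was 1.56%, 2.57%, 2.28%, 2.25%, 1.69% and 0.521% in the same order. C40T, in the stem of the anticodon arm, was 1.40%, 1.74%, 1.25%, 1.69%, 1.45% and 0.383%. G18A was highest at 256cell, the other 2 at 1cell. C69T, in the acceptor stem, was 1.07% in egg, 1.93% at 1cell and 1.34% at 256cell, then 1.39% at sphere, 1.16% at shield and 0.400% in the 24hpf library. C49T, C51T and T21C were also highest at 1cell, with 1.22%, 1.44% and 1.27%, and at 24hpf they were 0.272%, 0.392% and 0.267%. Among the 1132 sequences that need no gap, and over positions 18 to 71 other than 58, 26 positions had a summed share of changed reads of at least 0.1% in some library. At 21 of these the 24hpf library was the lowest, and at 22 it was below egg, with a median ratio of 24hpf to egg of 0.417. At position 58 the ratio was 1.00. Other tRNAs were not aligned in this way, so no share over all tRNAs stands beside these counts.

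Nearer the 5′ end the order was mixed, and positions up to 10 rest on fewer reads. Among the sequences that need no gap, 24hpf was lowest at positions 14, 16 and 17, but not at positions 9 to 13 and 15. At position 17 it was 0.102%, against 0.573% in egg. C10T was 1.19% in egg, 1.64% at 1cell and 1.48% at 256cell, then 1.63% at sphere, 1.72% at shield and 2.14% in the 24hpf library, the highest value. T9C was 0.819% to 1.104%. G1T and C4T came to 8.01% to 30.9% and 0.602% to 13.8%, but each rests on 1 sequence, and as few as 97 and 267 reads of a library cover these positions. G16A, T17G and G18T reached 1.45%, 1.02% and 1.00% and were lowest at 24hpf, yet most of these reads match the full-length sequence better with a gap. Without such reads the 3 changes reached at most 0.336%, 0.00184% and 0.00914%, while G18A still reached 2.76%. C10T, with 5 sequences of which 3 were left in this way, then reached at most 1.73%. Reads with a 1 nt deletion were 0.676% to 1.49% of the histidine reads.

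**Figure D4:**
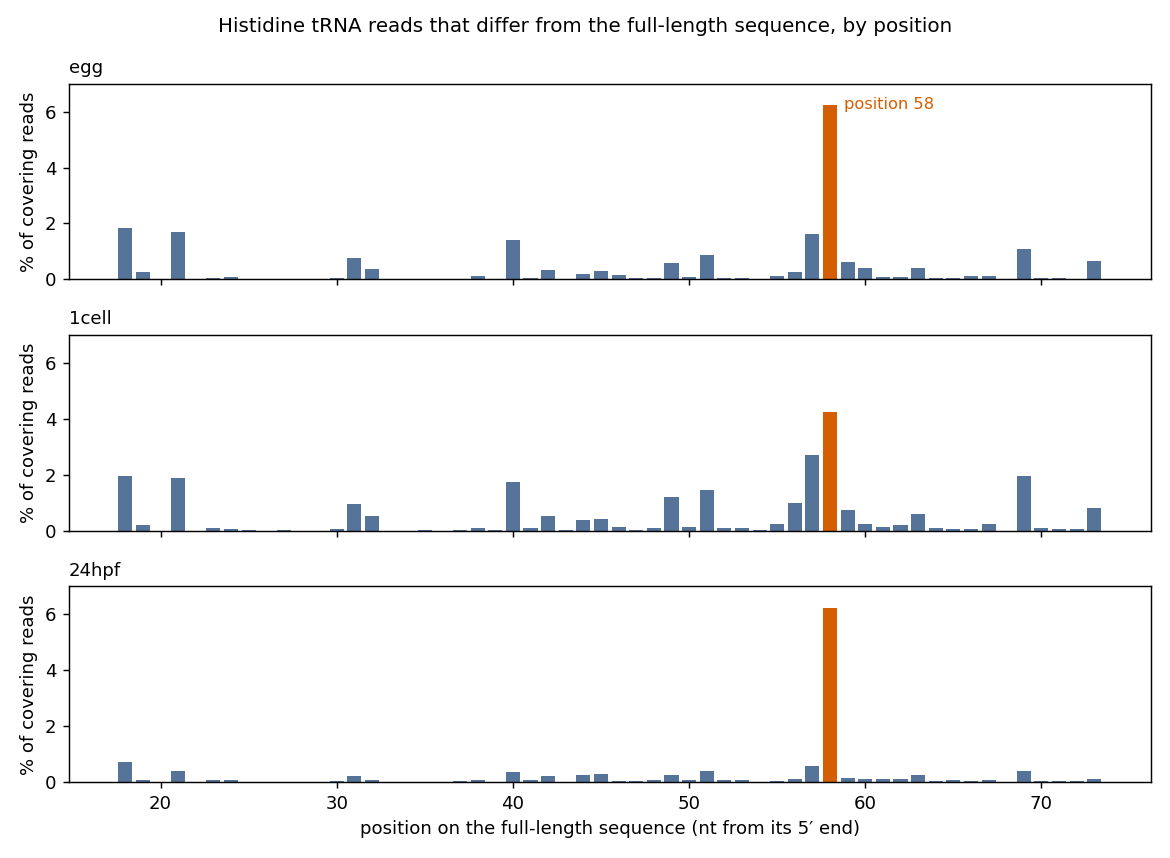
Percentage of the histidine tRNA reads covering a position that differ from the full-length sequence (vertical axis) along positions 18 to 73 (horizontal axis, nt from the 5′ end), for egg, 1cell and 24hpf; position 58 is in orange. At 24hpf position 58 stays at 6.24% while position 57 is at 0.574% (1.63% in egg) and position 40 at 0.382% (1.41% in egg).

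Reads were then grouped by the exact set of changes they carry, whatever their start and end. This gave 207 sets with at least 1 change, of which 76 averaged 100 RPM or more. In 45 of the 76 the share of aligned reads at 24hpf was below all 5 other libraries, and 38 were at or under 0.5 of their egg share. Only 3 of the 76 were at 2 times the egg share or more, and the median ratio was 0.495. Of the 53 sets with a single change outside position 58, 26 were below all other libraries at 24hpf and 20 were lowest in egg. Of these 53, 22 were at or under 0.5 of their egg share, and their median ratio was 0.738. Of the 20 sets with 2 or more changes, 19 were below all other libraries at 24hpf, with a median ratio of 0.374. The exception, C40T/C49T, had the highest ratio of the 76 (3.18). Sets can share a change, such as C51T in C51T/G63A and C51T/G57A, and do not count separately. No sets were formed for other tRNAs, so no share over all tRNAs stands beside these counts or those by kind of change below. Of all 1913 single sequences compared, 42.3% were at least 2-fold lower at 24hpf than in egg, as shares of cytoplasmic reads.

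Several sets join changes at positions that lie far apart or face each other in the folded tRNA. T21C/A73T joins the D loop to the base before the CCA tail, and was 0.613% in egg, 0.770% at 1cell and 0.516% at 256cell, then 0.388% at sphere, 0.341% at shield and 0.112% in the 24hpf library. It was higher in each of the 3 earlier libraries than in each of the 3 later ones, and was named after its values were seen. Of all 1913 single sequences compared, 11.9% had all 3 later libraries below all 3 earlier ones. C51T/G63A changes both partners of a base pair in the stem of the T arm, and was 0.330%, 0.477%, 0.229%, 0.366%, 0.289% and 0.126% in the same order. T55C/C69T was 0.0751% in egg, 0.113% at 1cell and 0.00776% at 24hpf, a ratio to egg of 0.103. C40T/C49T rested on 88 reads in egg (0.00213%) and was 0.0712% at 1cell and 0.00683% at 24hpf. Egg and 1cell, with 1 library each, differed by 33.4-fold in this set, and the reason was not tested. C56A differed between these 2 libraries as well, with 0.0673% in egg and 0.460% at 1cell, and so did C51T/G57A, with 0.0445% and 0.248%. T66C had another course, with 0.104% in egg and 0.138% at 256cell, and 0.0226% to 0.0244% in the other 4 libraries.

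Single G-to-T changes went against the fall at 24hpf. Of 14 such sets, 12 were lowest in egg and 1 was lowest at 24hpf, and their median ratio of 24hpf to egg was 1.58. G37T, at the third anticodon base, was 0.0217% in egg, 0.0401% at 1cell and 0.0442% at 256cell, then 0.0471% at sphere, 0.0496% at shield and 0.0490% in the 24hpf library. The other 2 of the 14 were G19T, with 0.226% in egg and 0.0558% at 24hpf, and G38T, with 0.0567% and 0.0418%. Among 16 single C-to-T sets, 8 were lowest at 24hpf and 8 in egg, with a median ratio of 1.07. C67T, in the acceptor stem, was 0.0229% in egg, 0.0379% at 1cell and 0.0394% at 256cell, then 0.0396% at sphere, 0.0487% at shield and 0.0644% in the 24hpf library, the highest of the 6. Of 7 single G-to-A sets, 6 were lowest at 24hpf, with a median ratio of 0.436. These groups by kind of change were formed after their values were seen.

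**Figure D5:**
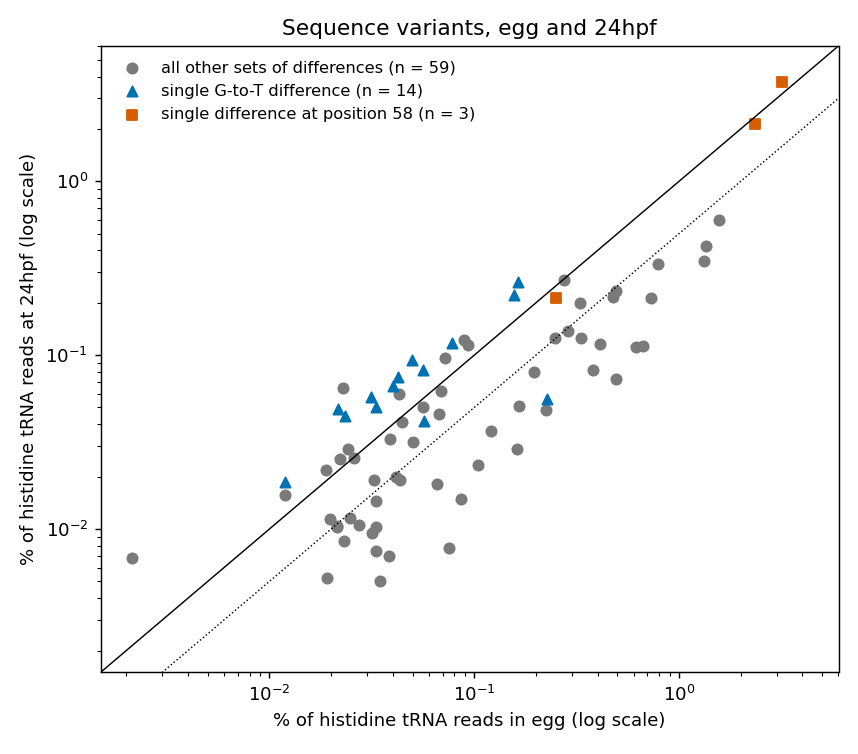
Each point is 1 of 76 sets of changes averaging 100 RPM or more, placed by its percentage of aligned histidine reads in egg (horizontal, log scale) and at 24hpf (vertical, log scale); the solid line marks equal shares and the dotted line a ratio of 0.5. Most grey points lie under the solid line, the 3 single changes at position 58 lie near it, and 12 of the 14 single G-to-T sets lie above it.

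For single sequences, 24hpf was compared with egg on the log2 scale of RPM + 1 divided by the cytoplasmic total, and 2-fold (1 on that scale) was the size counted. A mean of 10 RPM or more was reached by 1010 of the 1296 histidine sequences, which held 99.6% of the histidine RPM. Among them 49 were at least 2-fold higher at 24hpf and 435 at least 2-fold lower, or 4.85% and 43.1%. Over all 1913 cytoplasmic sequences compared, 12.5% were higher and 42.3% lower, so the share of lower sequences was near that of the table as a whole. The 1913 include the histidine sequences. Among the 903 of other tRNAs, 21.2% were higher and 41.4% lower. The median of the histidine sequences was -0.73. None of the 50 sequences changed at position 58 alone reached 2-fold, with a median of -0.14. They are versions, by start and end, of only 3 single changes, A58T, A58G and A58C. Of the 84 changed at position 58 and elsewhere, 52 were lower and 0 higher, with a median of -1.17. Of the 702 with changes elsewhere only, 341 were lower and 47 higher, with a median of -0.93. Of the 47 without a change, 9 were lower and 0 higher. Of the 82 that start at positions 8 to 10, 56 were lower and 0 higher, with a median of -1.48. These are among the reads whose summed share was given above as lowest at 24hpf, so they do not count separately. The split depends on the scaling: with median-ratio size factors 292 histidine sequences were higher and 161 lower, and their median moved from -0.73 to 0.25. It also rests on the 24hpf library. With sphere in its place 111 were higher and 43 lower, and with shield 79 were higher and 92 lower.

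The 5 lowest sequences of this comparison were 3 reads with T55C/C69T and the reads from position 16 with T17A and with A46T. The read from position 15 with T55C/C69T had 130 RPM in egg, 85.2 at 1cell and 36.1 at 256cell, then 71.8 at sphere, 57.2 at shield and 13.5 in the 24hpf library. The read from position 16 with T17A had 173 RPM in egg and 15.8 at 24hpf, with 34.9 to 61.1 in the 4 stages between. The read from position 16 with A46T, in the variable loop, had 84.8 RPM in egg, 20.8 to 48.4 in the 4 stages between and 9.43 at 24hpf. At the high end the read from position 13 with C67T had 10.1 RPM in egg, 11.7 at 1cell and 16.2 at 256cell, then 24.4 at sphere, 31.8 at shield and 61.2 in the 24hpf library, rising in RPM from each stage to the next. As a share of the histidine reads it was 0.00337% at 1cell and 0.00330% at 256cell, and 0.00543% at sphere and 0.00513% at shield, so that scale shows no steady rise. The reads from position 15 with A43T and C75T had less even courses. A43T had 1.83 RPM in egg and 31.7 at 1cell, and C75T, a change in the tail, had 6.07 RPM at 1cell, 28.6 at 256cell and 43.3 at 24hpf.

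In the comparison of the 3 later with the 3 earlier stages, 1 of 1010 histidine sequences was at least 2-fold higher, the read from position 13 with C67T, and 119 were at least 2-fold lower. Over all 1913 sequences 3.71% were higher and 19.1% lower, and among the 903 of other tRNAs 7.75% were higher and 27.2% lower. The count of lower histidine sequences was 18 without the 24hpf library and 266 without the sphere library. It was 26 with median-ratio scaling, where 27 were higher. In 47 histidine sequences (4.65%) all 3 later libraries were above all 3 earlier ones, and in 108 (10.7%) all were below. Over all 1913 sequences the shares were 6.27% and 11.9%. Of the 50 sequences changed at position 58 alone, 11 were above and 0 below, but they are versions of the same 3 changes and do not count separately. Over all covering reads A58T was higher in each later library than in each earlier one, while A58G was highest in egg. Among the lowest was the read from position 14 with T66C, with 206 RPM in egg, 28.1 at 1cell, 233 at 256cell, and 28.2, 42.3 and 47.8 in the later libraries, so that the 1cell library lay with the later ones. edgeR's quasi-likelihood test on the recovered reads, with the stages standing in for replicates, called 0 histidine sequences at an adjusted p under 0.05. The smallest Benjamini-Hochberg adjusted p in edgeR was 0.126 among the higher and 0.0939 among the lower ones, and 8 and 65 had an unadjusted p under 0.05. Over all sequences edgeR called 0.575% higher and 1.67% lower.

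Among 33 other anticodons that averaged 10 RPM or more, the course over the 6 libraries most like that of His-GTG was found for Glu-CTC, with Pearson's r = 0.900 and Spearman's rho = 0.829 on log2(RPM + 1). Val-TAC (r = 0.751, rho = 0.771) and Leu-AAG (r = 0.679, rho = 0.771) followed, and Met-CAT was the most unlike (r = -0.943, rho = -1). These coefficients are descriptions over 6 libraries that share their depth and scaling between anticodons. Glu-CTC had 282 RPM in egg, 137 at 1cell and 248 at 256cell, then 286 at sphere, 662 at shield and 845 in the 24hpf library. His-GTG is also on a list of 9 tRNAs treated here as sources of 5′ tRNA fragments, the molecules named in the title of the study. As shares of cytoplasmic reads, 24hpf against egg, 1 of the 9 was at least 2-fold higher (Glu-CTC, 1.35 on the log2 scale) and 3 were at least 2-fold lower (Gly-CCC at -2.86, Val-CAC at -2.15 and Gly-GCC at -1.44). Over all 35 anticodons compared, 20.0% were at least 2-fold higher and 42.9% at least 2-fold lower. The median of the list was -0.00, which is the value of His-GTG itself.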

How the data were processed

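Per the labels' protocols, small RNA was gel-selected, deacylated, end-repaired and treated with ALKB enzymes. The authors deposited RPM values per distinct read sequence, and per mitochondrial tRNA. Cutadapt 3.4, Bowtie2 2.4.2 and the build GRCz11 are named per the submitters' processing notes; what each did, and the labelling rule, is not given in the sources used here.

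In each library every RPM value was a whole multiple of the value of 1 read (100% within 0.01 reads), which gave the reads per library: 7096801 in egg, 6094181 at 1cell and 3324546 at 256cell, then 5892692 at sphere, 4211882 at shield and 6148047 in the 24hpf library. Histidine reads numbered 1636121 to 4245744.

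Sequences were aligned with Python 3.11.15 (numpy 2.4.6, pandas 2.3.3, scipy 1.17.1, edlib 1.3.9.post1) without gaps, with at most 5 substitutions. Another 48 sequences within that limit matched better with a gap and stayed out of shares by start, class and set of changes, but not of the shares of single changes, a step chosen after seeing the data. Of the sequences with no alignment, 5 kept more than 5 and at most 10 differences even with gaps allowed, and 1 run of missing bases did not account for them. edgeR 4.0.16 (R 4.3.3) was tested on simulated data. Named sequences were the 10 most abundant, the 5 highest and 5 lowest of each comparison, the leader of each length class and the His-ATG sequences; named positions had at least 1% changed reads, and named sets of changes were chosen after their values were seen. The members and lists were chosen with earlier results of these data known.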

Additional observations from a re-analysis of the deposited data

How the results depend on the processing

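No paired analysis was possible because each stage has a single library. Weighting each sequence by 1 in place of its RPM moved the share ending in CCA from 94.4% to 79.7%, that of 60 to 64 nt from 81.4% to 72.5% and that starting at 14 or 15 from 60.7% to 40.02%. The log2 ratio of His-GTG, 24hpf to egg, was -0.00 as a share of cytoplasmic reads, 0.22 as RPM and 0.0361 among reads ending in CCA. For 24hpf against egg, the count of higher sequences (49) was 80 as RPM, 292 with median-ratio scaling, 13 with a pseudocount of 10 RPM, 2 at a mean of at least 100 RPM, 11 against 1cell and 3 against 256cell; with sphere or shield in place of 24hpf, added after seeing the data, it was 111 and 79. The count of lower sequences (435) was 161 with median-ratio scaling, 91 at 100 RPM, and 43 and 92 with sphere and shield. For later against earlier stages, the count of higher sequences (1) was 8 as RPM, 27 with median-ratio scaling, 0 with a pseudocount of 10 RPM, at 100 RPM and in edgeR, and 0 to 8 leaving out each library in turn. The count of lower ones (119) was 41, 26, 63, 26 and 0 in the same settings, and 18 to 266 leaving out libraries. The ratio of 24hpf to egg of changed reads was 1.01 at position 58 and 0.436 elsewhere, and the 3 alternatives kept both directions and sizes. Of 870 values of named sequences, 803 held, 63 moved and 4 reversed. Moved means that a value passed or lost the 2-fold size, and reversed that a value of that size changed sign. Smaller values that changed sign without reaching that size count as held. The reversed values were A43T from position 15, at -2.26 against 1cell and -0.94 against 256cell, and 2 of C75T. C75T from position 14 was -0.27 against 256cell, and from position 15 it was -0.0642 with sphere in place of 24hpf. The moved values include abundant reads with median-ratio scaling, 24hpf against egg. The unchanged read from position 15 went from 0.09 to 1.08 and that from position 14 from 0.17 to 1.16. Unchanged reads from positions 11, 12 and 13 and the A58T reads from 14 and 15 also passed 1. Those from positions 10, 16 and 17 without a change shifted as well, but did not pass 1. That scaling shifts all sequences of the comparison alike. The median of the histidine sequences went from -0.73 to 0.25 and that of other tRNAs from -0.48 to 0.50. Beyond this shared shift, and fewer sequences entering at 100 RPM, why values moved was not tested. Depth limits reads of 70 nt or more.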
